A study of Mus musculus with 12 samples.

Results

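B and T lymphocyte genes were followed on every array of mice lacking Prkch and Apoe and of mice lacking Apoe alone, as a reading of the lymphocyte content of each sample. The 9 members were Ms4a1, Cd79a, Cd79b, Ighm and Jchain of B cells and Cd3d, Cd3e, Cd3g and Themis of T cells, out of 19938 genes with a probe set of their own on the macrophage and liver array and 12394 on the aorta array. Every probe set annotated to 1 of the members alone was taken, which gave 11 probe sets for all 9 members on the first array and 19 for 8 members on the second, where no probe set was annotated to Themis. The members were chosen by their differences between the genotypes on these same arrays, so their values are a description and carry no test.

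The knockout mice were Prkch-/-Apoe-/-, the control mice Apoe-/-, both on C57BL/6J, so the controls lack Apoe as well. Knockout and control macrophages were thioglycolate-elicited, unstimulated peritoneal cells of females on regular diet, 3 arrays per genotype, with ages of 18, 17 and 27 weeks for replicates 1, 2 and 3. The livers, 2 arrays for each genotype, were those of re-fed males 20 weeks old that had eaten a high-fat diet for 12 weeks. The aortas were those of fed males, equal in age and diet, and each genotype had a single array that carried a pool of 4 mice. Liver and aorta had been rinsed of blood with saline. Which part of Prkch the knockout lacks, and in which cells, is not stated in the labels.

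B cells carry an antigen receptor made of membrane immunoglobulin, whose mu heavy chain comes from Ighm, and the signalling pair CD79A and CD79B. Ms4a1 encodes the B cell surface protein CD20, and Jchain encodes the joining chain that links secreted immunoglobulin M and A into polymers. T cells carry the CD3 complex, to which Cd3d, Cd3e and Cd3g each give a chain, and Themis encodes an adaptor of T cell receptor signalling that thymocytes need to mature. Protein kinase C eta, the product of Prkch, is itself made in T cells. The peritoneal cavity holds many B cells at rest, the liver is rich in lymphocytes of several kinds, and the outer wall of atherosclerotic aortas can hold B and T cell aggregates next to lymph nodes in the surrounding fat.

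The 3 CD3 genes lie side by side on chromosome 9, in the order Cd3g, Cd3d and Cd3e, while the other members lie on separate chromosomes. RefSeq promoters (GRCm38.p6, 250 bases before to 50 after the start) were on hand for 6 of the 9 members, all but Ms4a1, Cd79b and Ighm. The 4 shown here are those of the 3 members that held a searched motif and of Themis, the member with the widest gap between genotypes in liver. Capitals mark a match.
Cd79a promoter, chr7:24897247-24897546, plus strand: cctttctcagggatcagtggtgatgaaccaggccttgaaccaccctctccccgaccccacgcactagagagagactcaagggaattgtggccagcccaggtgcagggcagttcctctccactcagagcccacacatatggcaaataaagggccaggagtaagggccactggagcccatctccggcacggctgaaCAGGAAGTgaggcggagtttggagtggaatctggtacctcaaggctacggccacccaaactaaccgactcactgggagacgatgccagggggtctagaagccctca
Cd3e promoter, chr9:45009562-45009861, minus strand: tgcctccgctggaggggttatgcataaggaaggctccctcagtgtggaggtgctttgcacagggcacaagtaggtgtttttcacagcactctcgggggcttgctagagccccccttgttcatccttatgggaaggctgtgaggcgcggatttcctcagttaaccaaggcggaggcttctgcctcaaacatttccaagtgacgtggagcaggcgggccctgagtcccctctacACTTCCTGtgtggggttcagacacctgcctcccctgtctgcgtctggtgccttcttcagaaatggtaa
Cd3d promoter, chr9:44981536-44981835, plus strand: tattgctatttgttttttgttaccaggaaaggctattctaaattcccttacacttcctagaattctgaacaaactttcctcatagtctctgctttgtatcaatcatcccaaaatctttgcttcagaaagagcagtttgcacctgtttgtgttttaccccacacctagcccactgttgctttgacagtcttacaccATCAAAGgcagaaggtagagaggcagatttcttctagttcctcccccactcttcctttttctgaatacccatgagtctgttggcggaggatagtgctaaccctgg
Themis promoter, chr10:28668110-28668409, plus strand: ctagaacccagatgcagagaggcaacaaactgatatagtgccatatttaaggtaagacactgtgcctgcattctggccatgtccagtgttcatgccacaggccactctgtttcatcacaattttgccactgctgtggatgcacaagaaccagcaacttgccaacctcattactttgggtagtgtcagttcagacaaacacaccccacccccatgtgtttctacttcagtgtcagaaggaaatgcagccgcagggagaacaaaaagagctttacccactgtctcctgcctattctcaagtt
The motifs searched on both strands were the octamer ATGCAAAT, the Ets-type CAGGAAGT, the EBF-type pattern of TCCC and GGGA separated by any 2 bases and the TCF-type CTTTGAT, none of which overlapped another in these promoters. The Ets-type letters were in the promoters of Cd79a and Cd3e and in 3.33% of all 32851 promoters. The TCF-type letters were in the promoter of Cd3d and in 3.73% of all promoters. The octamer and the EBF-type letters, which 1.74% and 0.904% of all promoters hold, were in 0 of the 6 member promoters.

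Across the series, Lyz2 and Cd68 of macrophages lay between 13.05 and 14.04 log2 units on the macrophage arrays, Alb and Apoa1 of hepatocytes between 13.85 and 14.27 on the liver arrays, and Acta2 of smooth muscle at 2679 and 2260 units of signal in the knockout and control aorta pools. The brighter Prkch probe set lay between 8.79 and 9.36 log2 units in knockout macrophages and between 9.31 and 9.94 in control macrophages, between 5.65 and 5.93 in knockout livers and between 6.57 and 6.87 in control livers, and at 9.94 units of signal in the knockout aorta pool against 17.2 in the control pool. Both aorta readings lay below 32.6 units of signal, under which a gene counted as dim there, so their difference is uncertain. Exact ties set macrophage arrays apart. Knockout replicates 2 and 3 and control replicate 3 shared between 16075 and 18000 identical values per pair, while knockout replicate 1 and control replicates 1 and 2 shared between 53 and 69 and pairs across the 2 sets between 0 and 3. Knockout replicate 3 and control replicate 3 held the same value in 5 of the 11 member probe sets, 1 each of Cd79a, Ighm, Cd3d, Cd3e and Themis, so that those pairs carry no difference between the genotypes. Over all 35557 probe sets, this pair of arrays held the same value in 50.6%, so such ties are not particular to the members.

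In elicited peritoneal cells the question was what Prkch loss does to macrophages, and here which lymphocyte genes came with them. B cell genes were high on a single knockout array, replicate 2, and lay on the other 2 knockout arrays within or below the control range. Ms4a1 was at 6.70, 10.13 and 6.92 log2 units in knockout replicates 1 to 3, against 8.26, 6.46 and 7.25 in control replicates 1 to 3. Knockout replicate 2 was the highest of the 6 arrays and control replicate 1 the next, with the other 4 arrays below both. The Ms4a1 difference was 0.59 ± 1.22 (SE, n = 3 and 3), smaller than its error. Without knockout replicate 2 it was -0.51.

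The genes of the receptor's signalling pair were highest on the same pair of arrays as Ms4a1. Cd79a was at 7.19, 9.53 and 7.62 in knockout macrophages, against 8.72, 7.47 and 7.62 in control macrophages, a difference of 0.18 ± 0.82 (SE, n = 3 and 3). Cd79b was at 7.63, 10.40 and 8.11 in knockouts, against 9.03, 7.75 and 8.27 in controls, a difference of 0.36 ± 0.93. In both genes knockout replicate 2 was highest, control replicate 1 next, and the genotypes overlapped. Without knockout replicate 2 the difference was -0.53 for Cd79a and -0.48 for Cd79b.

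The brightest Ighm probe set was at 6.78, 8.19 and 6.81 in knockout macrophages, against 7.11, 6.42 and 7.01 in control macrophages, a difference of 0.41 ± 0.51 (SE, n = 3 and 3). The other 2 Ighm probe sets differed by -0.021 and 0.28, so the probe sets of this gene did not share a direction. Jchain, which lay below the limit for dim genes (the 30th percentile of all probe sets, 5.74 log2 units), was at 4.85, 5.78 and 4.74 in knockouts, against 4.83, 4.76 and 5.62 in controls. Its difference was 0.054 ± 0.43, since knockout replicate 2 and control replicate 3 were both high.

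T cell genes showed less of this pattern. Cd3g was at 5.95, 7.31 and 5.64 in knockout macrophages, against 6.33, 6.05 and 5.81 in control macrophages, a difference of 0.23 ± 0.53 (SE, n = 3 and 3) that was -0.27 without knockout replicate 2. Cd3e was at 6.71, 7.02 and 6.72 in knockouts, against 6.46, 6.90 and 6.72 in controls, a difference of 0.12 ± 0.16. Knockout replicate 2 was highest for both, though for Cd3e it lay close to control replicate 2. Cd3d and Themis lay below the limit for dim genes and differed by 0.24 ± 0.19 and 0.046 ± 0.14. The Themis values were 4.95, 5.06 and 5.06 in knockouts, against 5.16, 4.71 and 5.06 in controls, so the knockouts lay inside the control range.

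**Figure D1:**
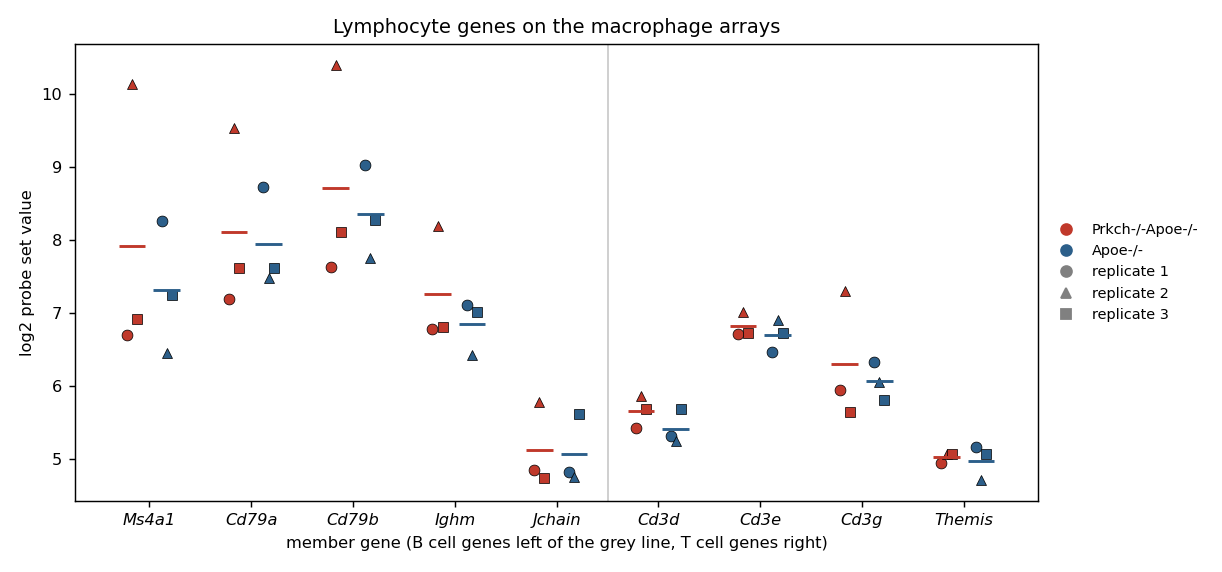
Level (log2 probe set value) of the brightest probe set of each of the 9 member genes on the 6 macrophage arrays, Prkch-/-Apoe-/- in red left of Apoe-/- in blue, with 1 point per array, shapes for replicates and bars for means. The red triangle, knockout replicate 2, stands at 10.13 for Ms4a1 and 10.40 for Cd79b, above every other array, while the other red points lie among or below the blue ones.

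Taken by lineage, the B cell members had a median difference of 0.36 and the T cell members of 0.18, where the median over all 15039 genes past the limit was -0.036. Of the 9 members, 0 had genotypes that did not overlap, against 0.562% higher and 1.37% lower in knockouts among all 19938 genes, or 0.652% and 1.6% among the 15039. Array by array, the B cell median relative to the control mean was -0.62, 1.59 and -0.32 in knockout replicates 1 to 3 and 0.68, -0.47 and -0.074 in control replicates 1 to 3. Without knockout replicate 2 the B cell median was -0.48 and the T cell median 0.024. Within the 2 sets of arrays that share ties, each of 3 arrays, the B cell median was -0.66 in the set of knockout replicate 1 and 0.955 in that of knockout replicates 2 and 3. The direction of the B cell difference therefore rests on knockout replicate 2. It also shrank to 0.062 without control replicate 2.

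Other genes of the lineages were read from lists. limma called 0 of 15039 genes in macrophages at a Benjamini-Hochberg adjusted p under 0.05 (0%), with 105 at an unadjusted p under 0.05, so 0 genes of any list passed. Of 20 other B lineage genes past the limit, 12 were highest on knockout replicate 2 and the list's median difference was 0.055, or -0.20 without that array. Among all genes past the limit, 12.3% were highest on that array. Other B cell lists followed it less, with 3 of 10 B-1 cell genes and 4 of 15 B cell receptor signalling genes highest there. Relative to the control mean, their medians on that array were 0.12 and 0.078, against 0.74 for the B lineage list. Fcrla, an Fc receptor-like gene of B cells, was at 6.86, 9.15 and 6.83 in knockouts, against 7.22, 6.79 and 7.03 in controls. Bank1, a B cell scaffold gene, was at 6.73, 8.12 and 6.75 in knockouts, against 7.50, 6.49 and 6.65 in controls. Of 24 other T lineage genes, 7 were highest on knockout replicate 2, and the list's median difference was 0.0060. Gimap3, a GTPase gene of lymphocytes, was at 6.17, 8.25 and 5.78 in knockouts, against 6.70, 5.90 and 6.07 in controls, while Il7r, the interleukin 7 receptor gene, was lowest on knockout replicate 2 at 11.11, against 12.55 to 12.68 in controls.

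Markers of some other cells stood out on the same array, though not of all. Of 8 Kupffer cell genes 6 were highest on knockout replicate 2. Only 3 of 10 neutrophil, 1 of 8 dendritic cell, 1 of 5 natural killer cell and 0 of 2 eosinophil genes were highest there. Of 8 MHC class II genes, which B cells and macrophages both use, 7 were highest on knockout replicate 2, where their median was 0.79 above the control mean. H2-Ob, which B cells express, was at 7.65, 9.54 and 7.35 in knockouts, against 8.58, 7.56 and 7.58 in controls. Of 8 mast cell genes 5 were highest there, and of 12 macrophage genes 8, with summed linear levels of the macrophage list between 63155 and 71934 in knockouts and between 62327 and 67218 in controls. The mast cell list summed to between 887 and 2115 in knockouts and between 1205 and 1363 in controls. The 7 mesothelial genes were never highest there, and Sdc1, a plasma cell gene also found in macrophages and epithelium, was at 8.57 on that array against 10.92 and 10.94 in the other knockouts and 10.76 to 11.08 in controls. The part of these cells in the result was not tested. In samples of mixed cells, a change in the number of lymphocytes and a change in RNA per lymphocyte cannot be told apart.

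**Figure D2:**
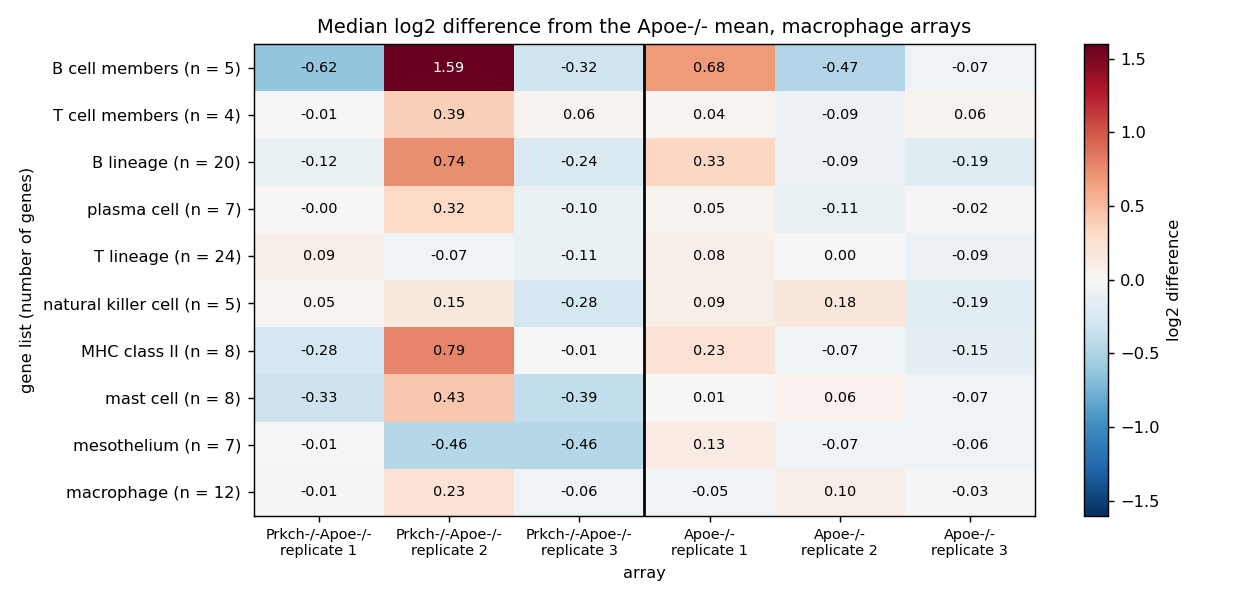
Median log2 difference from the Apoe-/- mean for each gene list (rows, with the number of genes) on each macrophage array (columns, Prkch-/-Apoe-/- left of the black line), printed in each cell and coloured from blue (lower) to red (higher). Knockout replicate 2 has 1.59 for the B cell members and 0.79 for MHC class II genes, while the T lineage list has -0.075 there.

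The genes whose pattern was most like the B cell members were ranked among 813 genes with a range of at least 1 log2 unit, by the lower of Pearson's r over the 6 arrays and over the 5 without knockout replicate 2. The first 10 named were Mzb1, Ebf1, Fcrl5, Fcrla, Slamf6, Nfkbia, Gimap6, Blk, C4b and Cxcl2, with r between 0.935 and 0.995 over 6 arrays and between 0.919 and 0.986 over 5. Of 13 B lineage list genes among the 813, 11 were in the first 100, which hold 12.3% of the candidates. The range was taken over all 6 arrays, so a gene could pass it through knockout replicate 2 alone, where the B cell members are high. C4b was at 10.44 on that array and between 8.77 and 8.95 on the other 5. The count is therefore a description and no test. Ebf1, a transcription factor of the B lineage, was at 6.10, 8.04 and 6.41 in knockouts, against 7.07, 6.24 and 6.58 in controls. Cxcl2, a neutrophil chemokine gene, was at 8.43, 10.35 and 8.36 in knockouts, against 8.86, 8.41 and 8.56 in controls. The 10 genes most like the T cell members began with Fcrl5, Nfkbia, Cxcl13, Sod2 and C4b, and also held Fcrla, Mzb1 and Ebf1 of B cells. Of 5 T lineage list genes among the 813, 3 were in the first 100. All these points share their arrays, so the values describe these 6 samples only.

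Among the B cell members, likeness over the arrays differed from pair to pair. Over the 6 macrophage arrays Pearson's r of Ms4a1 was 0.973 with Cd79a, 0.994 with Cd79b, 0.972 with Ighm and 0.682 with Jchain. Over the 5 arrays without knockout replicate 2 it was 0.936, 0.975, 0.858 and 0.152, in the same order. Without that array Jchain had r of -0.077 with Cd79a and 0.14 with Cd79b, and Cd79a had 0.635 with Ighm. The CD3 genes did not track each other, with r between 0.359 and 0.481 over 6 arrays for their 3 pairs and between -0.833 and 0.0027 over 5.

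In liver the question was what Prkch loss does in males re-fed after a high-fat diet. All 9 members had a lower mean in knockout livers, but 8 of the 9 by at most 0.33 log2 units. For 4 of them, Ms4a1, Cd79a, Cd3d and Cd3g, the sign turned when 1 array was left out, to as much as 0.26, 0.0035, 0.11 and 0.11. Themis stood apart, at 4.72 and 4.91 log2 units in knockout livers against 6.55 and 6.18 in control livers. Both knockouts lay below both controls by more than 1 log2 unit. The difference was -1.55 ± 0.21 (SE, n = 2 and 2), or 34.2% of the control level, and it ranged from -1.74 to -1.36 when 1 array was left out. The knockout mean of 4.82 lay below the limit for dim genes in liver (4.87 log2 units). Themis thus passed that limit through the control livers, and the percentage is uncertain.

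The CD3 genes did not share the Themis difference. Cd3e was at 6.04 and 5.76 in knockout livers, against 5.98 and 6.35 in control livers, a difference of -0.26 ± 0.23 (SE, n = 2 and 2). Cd3g was at 4.51 and 5.40 in knockouts, against 5.04 and 5.54 in controls, a difference of -0.33 ± 0.51, and Cd3d, below the limit for dim genes of 4.87 log2 units in liver, differed by -0.033 ± 0.18. In all 3 genes the genotypes overlapped. Of 21 other T lineage genes past the limit, 8 were higher and 13 lower in knockout livers, with a median of -0.083, where the median over all 15942 genes was -0.023. limma called 1 of those 15942 genes (0.00627%), which is no member and in no list, and 684 had an unadjusted p under 0.05, so 0 genes of this list were called. Cd247, which encodes the CD3 zeta chain, was at 5.35 and 5.15 in knockouts, against 5.51 and 5.45 in controls. Its groups did not overlap, as was the case for 6 of the 21 genes lower in knockouts and for 1 higher, where 18% and 11.8% of the 15942 genes did so.

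Of the B cell genes in liver, 2 passed the limit for dim genes. Cd79b was at 5.93 and 5.92 in knockout livers, against 6.01 and 6.07 in control livers, a difference of -0.11 ± 0.027 (SE, n = 2 and 2). The brightest Ighm probe set was at 5.61 and 5.90 in knockouts, against 6.04 and 6.07 in controls, a difference of -0.30 ± 0.15. Ms4a1, Cd79a and Jchain lay below the limit for dim genes, with differences between -0.24 and -0.067. Of all 9 members, 4 did not overlap and were lower in knockouts (Themis, Cd79b, Ighm and Jchain), in a comparison where 17.3% of all 19938 genes and 18% of the 15942 past the limit did the same, and 12.3% and 11.8% were higher without overlap.

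**Figure D3:**
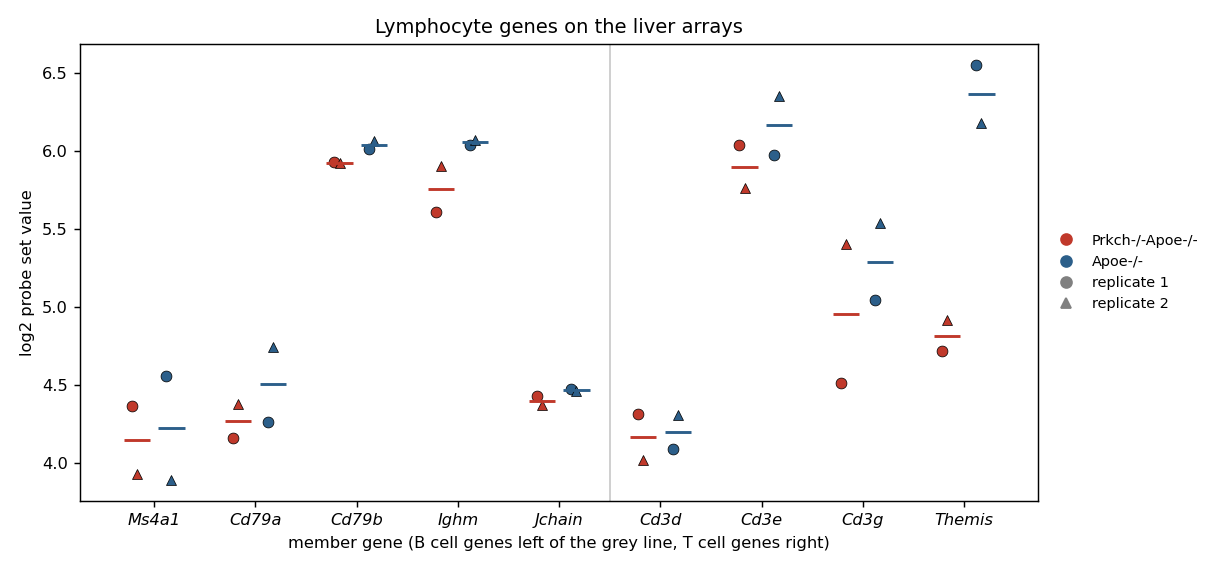
Level (log2 probe set value) of the 9 member genes on the 4 liver arrays, Prkch-/-Apoe-/- in red left of Apoe-/- in blue, with 1 point per array and bars for means. Themis lies at 4.72 and 4.91 in knockouts and at 6.55 and 6.18 in controls. Within each of the other 8 genes, the knockout and control means differ by 0.33 log2 units or less (rounded).

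Of 19 other B lineage genes past the limit in liver, 7 were higher and 12 lower in knockouts, with a median of -0.11 and 0 called by limma. The largest difference was in Ly6d, a surface protein gene that B cell precursors share with epithelium, at 6.04 and 7.87 in knockouts against 8.69 and 8.15 in controls (limma, Benjamini-Hochberg adjusted p = 1.00). Syk, a kinase of receptor signalling that macrophages also use, was at 6.27 and 6.48 in knockouts, against 6.80 and 6.89 in controls. Markers of some other immune cells were lower as well, though not of all. Over all measured genes the neutrophil list had a median of -0.0048 and the mast cell list of 0.028. All 8 MHC class II genes were lower, with a median of -0.63, among them H2-Ab1 at 8.64 and 9.58 in knockouts against 10.03 and 10.07 in controls, and their summed linear levels lay between 1691 and 2938 in knockouts and between 3617 and 4110 in controls. All 8 Kupffer cell genes had a lower mean, with sums between 5898 and 7029 in knockouts and between 7939 and 10444 in controls. Of these 8, 4 were lower without overlap, as were 18% of all genes past the limit. Vsig4 overlapped, at 10.36 and 8.87 in knockouts against 10.14 and 10.62 in controls. The part of these cells in the lymphocyte values was not tested.

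Levels were set side by side between macrophages and liver on the same array type, where the median of an array ranged from 6.57 to 6.77 for macrophages and from 5.88 to 5.93 for liver. Ms4a1 averaged 7.92 ± 1.92 in knockout and 7.32 ± 0.90 in control macrophages (SD, n = 3 each), above 4.15 ± 0.31 in knockout and 4.22 ± 0.47 in control livers (SD, n = 2 each). Relative to each array's median these were 1.26, 0.63, -1.76 and -1.68. The macrophage groups did not differ beyond their spread, nor did the liver groups, while the gap between the tissues exceeded both spreads. For Themis the order was different. It averaged 5.03 ± 0.064 in knockout and 4.98 ± 0.24 in control macrophages and 4.82 ± 0.14 in knockout livers, against 6.36 ± 0.27 in control livers. Relative to array medians these were -1.63, -1.71, -1.09 and 0.46. Sex, age and diet differ along with the tissue.

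In the aorta the question was what Prkch loss does to the vessel wall, with 1 pool per genotype and so no replicate check and no p. All 8 measured members were higher in the knockout pool, 5 of them at least 2-fold, where 0.541% of all 12394 genes were, or 0.873% of the 7098 past the limit for dim genes, with 0.394% at least 2-fold lower. Each difference was taken after adding 16 to the signal and then log2, so that of a dim gene is understated. Ms4a1 read 453 units of signal in the knockout pool against 49.9 in the control pool, and its dimmer probe set read 201 against 17.3, so that both were higher, by 2.83 and 2.71. Cd79b read 162 in the knockout pool against 29.8 in the control pool, a difference of 1.96. Cd79a, its partner, read 13.2 against 8.54, a difference of 0.25 between values that both lie below the limit for dim genes (32.6, the median over probe sets of the brighter of both readings).

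The antibody genes differed in the same direction. The brightest Ighm probe set read 1431 in the knockout pool against 366 in the control pool, a difference of 1.92. Of the 11 probe sets annotated to Ighm alone, 11 read higher in the knockout pool, and the 5 past the limit did so by ratios between 3.23 and 5.99. Jchain read 651 in the knockout pool against 79.7 in the control pool, a difference of 2.80. Heavy chain genes of other classes did not all share this direction. Ighg3 read 77.4 in the knockout pool against 26.9 in the control pool, while Igha, the heavy chain of immunoglobulin A, read 21.1 against 60.1, so it was lower. Immunoglobulin probe sets can take up RNA of related genes, so these classes cannot be fully separated.

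The T cell genes were dimmer and again higher in the knockout pool. Cd3d read 87.5 units of signal in the knockout pool against 6.08 in the control pool, a difference of 2.23. Cd3g read 39.8 against 12.9, a difference of 0.95, and Cd3e read 11.4 against 2.56, a difference of 0.56 between values below the limit. The control readings of all 3 lay below the limit, so their ratios are uncertain. Among the 7098 genes past the limit, ordered from the largest increase, Ms4a1 was number 7, Jchain 9, Cd3d 11, Cd79b 15, Ighm 18 and Cd3g 72. Cd79b, Cd3d and Cd3g passed the limit through the knockout pool alone.

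**Figure D4:**
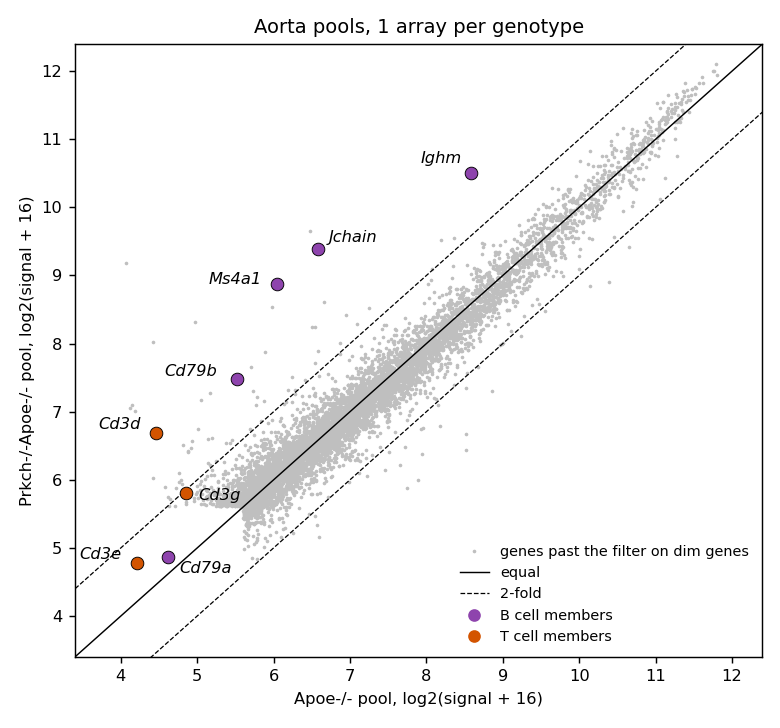
Each gene past the limit for dim genes (grey) by its log2(signal + 16) in the Apoe-/- pool (horizontal) and the Prkch-/-Apoe-/- pool (vertical), with the 8 measured member genes in colour, dim ones included. Ms4a1, Cd79b, Ighm, Jchain and Cd3d lie above the upper dashed line of a 2-fold difference, and Cd79a, Cd3e and Cd3g between that line and equality.

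Other B cell genes were higher in the knockout aorta pool as well. Of 20 measured B lineage genes that are not members, 18 were higher and 2 lower, 6 of them at least 2-fold higher, with a median of 0.78, where the median over all 12394 genes was 0.02. Ly6d read 138 in the knockout pool against 19.8 in the control pool. Tnfrsf13c, the receptor gene for the B cell survival factor BAFF, read 72.2 against 14.3, and Pou2af1, a B cell transcription coactivator gene, read 81.4 against 19.2. All 3 control readings were below the limit for dim genes, so these genes passed it through the knockout pool alone. Pax5, Blk, Fcer2a, Vpreb3, Cxcr5, Bach2 and Cd180 of the same list lay below the limit. Of 26 measured T lineage genes, 22 were higher and 4 lower, with a median of 0.26 and 2 at least 2-fold higher. These were Gimap7, at 42.7 in the knockout pool against 10.3 in the control pool, and Cd2, an adhesion receptor gene of T and natural killer cells, at 36.6 against 9.01, both with control readings below the limit. Only 8 of the 26 were past the limit, all 8 higher, with a median of 0.52. The rest, among them Cd4, Cd8a and Cd28, were below it, so the counts over all 26 rest mostly on dim readings.

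Genes of lymphoid tissue were higher alongside them. Of 8 measured genes of lymphoid stroma and endothelium 8 were higher, among them Ltb, the lymphotoxin beta gene of lymphocytes, at 219 in the knockout pool against 43.2 in the control pool, and Cxcl13, the chemokine gene that draws B cells into follicles, at 287 against 77.5. Glycam1, a gene of lymph node venules, read 33.9 against 27.3, and Lyve1, of lymphatic endothelium, 151 against 109. The list summed to 707 in the knockout pool and 267 in the control pool. Its median difference was 0.26 over the 8 measured genes, against 1.06 over the 4 past the limit. All 8 MHC class II genes were higher too, with a median of 0.67. H2-Oa, expressed in B cells, read 52.7 in the knockout pool against 11.1 in the control pool, where it was below the limit.

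Lists of other cells in the vessel had smaller median differences than the B lineage list or lay the other way. They were not set apart from every lymphoid list. Over all measured genes the smooth muscle median was 0.19. The B-1 cell, natural killer cell and T cell receptor signalling lists had medians of 0.18, 0.18 and 0.15. The B cell receptor signalling and plasma cell lists had 0.24 and 0.36. The macrophage list summed to 5978 units of signal in the knockout pool and 5521 in the control pool, and had 0 of 12 genes at least 2-fold higher. The smooth muscle list summed to 4995 in the knockout pool and 4138 in the control pool, the adipocyte list to 11359 and 10099, and the skeletal muscle list to 7247 and 11269. All 8 skeletal muscle genes were lower in the knockout pool, with Myh4 at 340 against 734. The part of attached tissue in the lymphocyte values was not tested, and with 1 pool per genotype the pool and the genotype cannot be told apart.

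**Figure D5:**
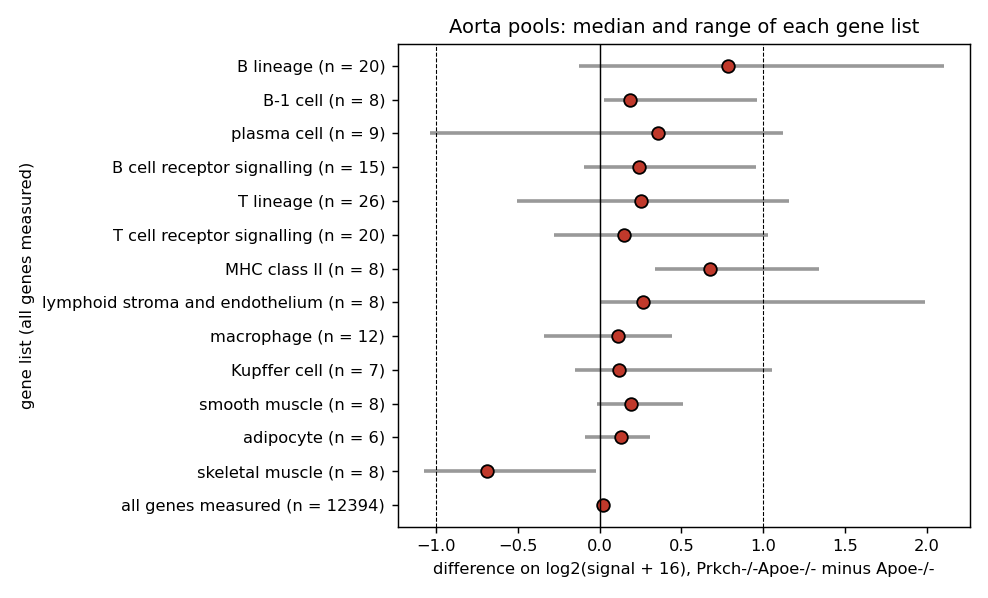
Median (red point) and range (grey line) of the difference on log2(signal + 16), Prkch-/-Apoe-/- minus Apoe-/-, over all measured genes of each list in the aorta pools, dim ones included; member genes are left out, dashed lines mark a 2-fold difference, and for all genes the median alone is drawn. B lineage genes have a median of 0.78 and lymphoid stroma genes of 0.26, against 0.11 for macrophage and -0.69 for skeletal muscle genes.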

How the data were processed

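Expression was measured on 12 arrays, Affymetrix Mouse Gene 1.0 ST for macrophages and liver and Mouse Genome 430A 2.0 for aorta, per the labels. Expression Console is the tool listed in the submitters' processing notes, and its version and algorithm are not stated there. For macrophages and liver the authors deposited normalized values on a log2 scale, and for aorta linear intensity, whose trimmed mean was 99.99 on both arrays. The number of arrays limits the precision.

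Symbols came from GEO's platform annotation: 21789 of 35557 and 20393 of 22690 had 1 symbol, and the gene table gave 0 changed symbols. A gene was represented by its brightest probe set. Genes below the 30th percentile were left out of the tests, which used limma 3.58.1 in R 4.3.3 (lmFit, eBayes), each tissue alone, knockout minus control, no covariate, at a Benjamini-Hochberg adjusted p under 0.05. Errors of members are plain standard errors from the pooled spread. In the aorta a gene counted at a 2-fold difference on log2(signal + 16). The fit was tested on simulated data with independent noise, no ties and changes larger than those of any member in macrophages or liver. That test therefore does not show how the fit performs on arrays like these. p-values measure the spread between arrays that the labels call biological replicates. In macrophages, pairs among knockout replicates 2 and 3 and control replicate 3 share between 45.2% and 50.6% identical values, which the p-values do not take into account.

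The members, the 20 lists and the tests were chosen with earlier results of these data known, after which the named genes followed a rule: all members, up to 4 genes per list and tissue with the largest difference, and 10 per likeness ranking. List genes named beyond these, because they define a cell type or lie below the limit, were chosen after their values were seen.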

Additional observations from a re-analysis of the deposited data

Results flagged for a closer look

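Opposite directions in liver and aorta, with every knockout array beyond every control array in each, were seen for 3 B cell genes. The difference between the tissues was not tested. The aorta has 1 array per genotype, so any unequal readings meet that rule there. In liver 17.3% of all 19938 genes were lower in knockouts without overlap, and Jchain lay below the limit for dim genes. The share of all genes that meet the rule in both tissues was not counted. Cd79b differed by -0.11 in liver and 1.96 in the aorta, Ighm by -0.30 and 1.92, and Jchain by -0.067 and 2.80, each as knockout minus control on its own log2 scale.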

How the results depend on the processing

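In macrophages limma called 0 genes under each of 11 alternatives, and the B cell median stayed between 0.11 and 0.38 under quantile normalization, mean probe sets, the replicate block and the block of tie sets. Leaving out 1 array gave medians between -0.48 and 0.65 for B cell and between 0.024 and 0.27 for T cell members, the lowest without knockout replicate 2. Jchain turned to -0.15 with the block of tie sets. By their deviations, knockout macrophage replicates 1 and 3 correlated most with the control of the same number (0.40 and 0.50). Knockout replicate 2 did not, with 0.03 for control replicate 2 and 0.07 for control replicate 3. Each of the first 2 pairs lies within 1 set of arrays that share ties, so pairing and set cannot be told apart. The replicate block left the count at 0. In liver limma called 1 gene, but 0 without the filter on dim genes, 0 with quantile normalization and 23 with the replicate block, and between 0 and 36 when 1 array was left out (36 without knockout replicate 2). There the B cell median ran from -0.14 to -0.087 and the T cell median from -0.52 to -0.082 (the highest without control replicate 2), with a lone array taken to have the spread of the opposite genotype. In the aorta 90 genes differed at least 2-fold, 169 with a pseudocount of 1 and 44 with 50. The B cell median of 1.96 became 2.40 and 1.83, and the T cell median of 0.95 became 1.80 and 0.51. The cause of these changes was not tested. Over the alternatives, 90 of 90 member values in macrophages and 63 of 63 in liver moved by less than 1 SD. In macrophages that SD includes knockout replicate 2. Leaving out 1 array cannot move a value beyond this SD, which comes from the same arrays, and the replicate block leaves the differences as they were. For those settings the outcome was fixed in advance, so these counts are no measure of stability. The sign still turned in 11 of the 90 and 6 of the 63. In the aorta 18 of 24 moved, and 0 turned sign.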
